A study of Mus musculus with 36 samples.

Results

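The cytosolic ribosomal protein genes of the mouse hippocampus were described across 36 libraries. They were taken from the count table as the rows whose symbol starts with Rpl, Rps or Rplp and ends in a number, with or without the letter a, l or x, together with Rpsa, which gave 83 genes of 50559. Of these, 32 belong to the small subunit, 48 to the large subunit and 3 (Rplp0, Rplp1 and Rplp2) to the stalk of the large subunit. Symbols of annotated pseudogenes that carry -ps are not included. The count filter was passed by 81 of the 83 genes, and Rpl10l and Rpl39l stayed below it. GENCODE M21 lists 3 of the 81 (Rpl6l, Rpl32l and Rps4l) as pseudogenes, although their symbols meet the rule.

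The libraries come from 6-month-old female mice of 4 genotypes: Control (WT), APP (heterozygous Sw,Ind, J9 line), Tau (P301S, PS19 line) and APP/Tau, which carry both transgenes. Every animal, controls included, also carried PV_Cre (Pvalb-IRES-Cre) and RiboTag+/-, and all lines are on C57BL/6. RiboTag places an HA tag on the ribosomal protein Rpl22 in cells with Cre, here parvalbumin neurons, but only the input fraction of whole hippocampal lysate was sequenced, so no library was selected through the tag. Naive mice stayed in their home cages (6 Control, 5 APP, 4 Tau and 6 APP/Tau libraries), and trained mice had 5 days of Morris water maze training with 6 trials a day, a probe trial 24 hours later and dissection 2 hours after that (5 Control, 3 APP, 4 Tau and 3 APP/Tau libraries). Both naive and trained mice were handled for 3 minutes on 3 days beforehand. Whether every library stands for a separate animal is not stated, so the p-values measure the spread between these libraries, which may be technical.

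A ribosome is built from ribosomal RNA and a fixed set of small and large subunit proteins, which the cell makes in matched amounts. Their mRNAs are short, abundant and made in every cell type, and most begin with a terminal oligopyrimidine tract, a C followed by a run of C and T, through which the mTOR pathway controls their translation. Ribosomal protein genes have also left many processed copies in mammalian genomes, some nearly identical to the coding sequence, and a read from such a gene can be assigned to its copy. In neurons, mRNAs of ribosomal proteins are also found in dendrites and axons.

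The libraries held 69.2 M to 124.8 M counts, with a median of 85.4 M. Genes of hippocampal pyramidal and granule cells were present throughout: Prox1, a dentate granule cell gene, ranged from 60.2 to 146 CPM (a count relative to the total of its library, after TMM scaling of the totals) and Fibcd1, a gene of CA1 pyramidal cells, from 100.5 to 191 CPM. Pvalb, the gene that drives Cre, ranged from 2.59 to 20.7 CPM. Prnp, whose promoter drives the PS19 transgene, stood at 1423 to 2142 CPM in 16 libraries labelled Tau or APP/Tau and at 728 to 879 CPM in the 19 labelled Control or APP. The library labelled Tau trained replicate 4 had 846 CPM and so goes against its label. For the comparisons it enters, the median of the ribosomal protein genes and their smallest-p gene are given with and without it. Other changes it enters, such as those of Rpl22 and of other gene lists, are given with it under its label. Because the tissue is bulk, fewer cells of a type and less RNA per cell cannot be told apart.

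The start of the transcript is shown first because it carries the sequence by which these mRNAs are recognised as a class. RefSeq (GRCm38.p6) listed a start for 61 of the 83 genes, at 73 positions. A C followed by at least 4 further C or T at the listed start was found at 14 of these 73 starts (19.2%), against 2.51% of all 32851 listed starts. The 10 bases before and 20 bases after the start are given for 5 genes with such a tract and for Rpl22, where neither listed start had one, with the tract in capitals and 5′ to 3′ on the gene's strand.
Rpl15: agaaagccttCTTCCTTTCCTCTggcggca
Rps6: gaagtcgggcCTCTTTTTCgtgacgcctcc
Rps15a: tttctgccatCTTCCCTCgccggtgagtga
Rps27: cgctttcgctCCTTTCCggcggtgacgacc
Rplp2: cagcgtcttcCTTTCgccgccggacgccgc
Rpl22: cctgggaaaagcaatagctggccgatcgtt

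These windows lie at chr14:18270967-18270996 (Rpl15, minus strand), chr4:86857348-86857377 (Rps6, minus strand), chr7:118116128-118116157 (Rps15a, minus strand), chr3:90213629-90213658 (Rps27, minus strand), chr7:141447641-141447670 (Rplp2, plus strand) and chr4:152325716-152325745 (Rpl22, plus strand) of GRCm38.p6. The tract was 13 bases long in Rpl15, the longest of the 14, 9 in Rps6, 8 in Rps15a, 7 in Rps27 and 5 in Rplp2. Over the whole listed promoter, 250 bases before to 50 after the start, the motif CCGGAAG on either strand was in 35.6% of the 73 starts and in 8.86% of all starts. GGGCGG on either strand was in 57.5% and 35.7%, and TATAAA on either strand in 9.59% and 13.6%. Such matches describe the letters in these windows and are not evidence of binding, and a listed start can lie some bases from the start used in hippocampus.

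Ribosomal protein mRNAs spanned a wide range of levels from gene to gene, and most varied little between libraries. Per kilobase of coding sequence, the 76 core genes (the genes that passed with a coding length, without the copies Rpl3l and Rps27l) had a median of 192 CPM per kb, with quartiles of 142 and 253. Rpl41, which encodes the smallest ribosomal protein, had the highest level at 1650 CPM per kb (75 coding bases, lowest library 1253, highest 2452). Rplp1, an acidic protein of the stalk that contacts translation factors, followed with 819 CPM per kb and Rps29 of the small subunit with 497. A coding length this short leaves out most of the transcript, so the level per kb of Rpl41 rests on the untranslated part as well.

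The small subunit genes had a median of 218 CPM per kb over 30 genes and the large subunit genes 175 over 43. The stalk genes Rplp2 and Rplp0 stood at 213 and 131 CPM per kb, although Rplp1 and Rplp2 form dimers in the same stalk. At the other end, Rps13 was at 33 CPM per kb, but copies of it with at least 90% identity held 54.1% of the counts of the gene and its copies together. The paralogs were lower still. Rps27l, a paralog of Rps27, had 24.2 CPM per kb and Rpl3l, a paralog of Rpl3 best known from heart and skeletal muscle, had 0.214. Rpl39l, a paralog known from male germ cells, had 89 counts over all 36 libraries, with 14 libraries at 0. Rpl10l, a paralog also known from testis, had 0 counts in every library. The plot of levels per kb shows this order and the narrow range of most genes.

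**Figure D1:**
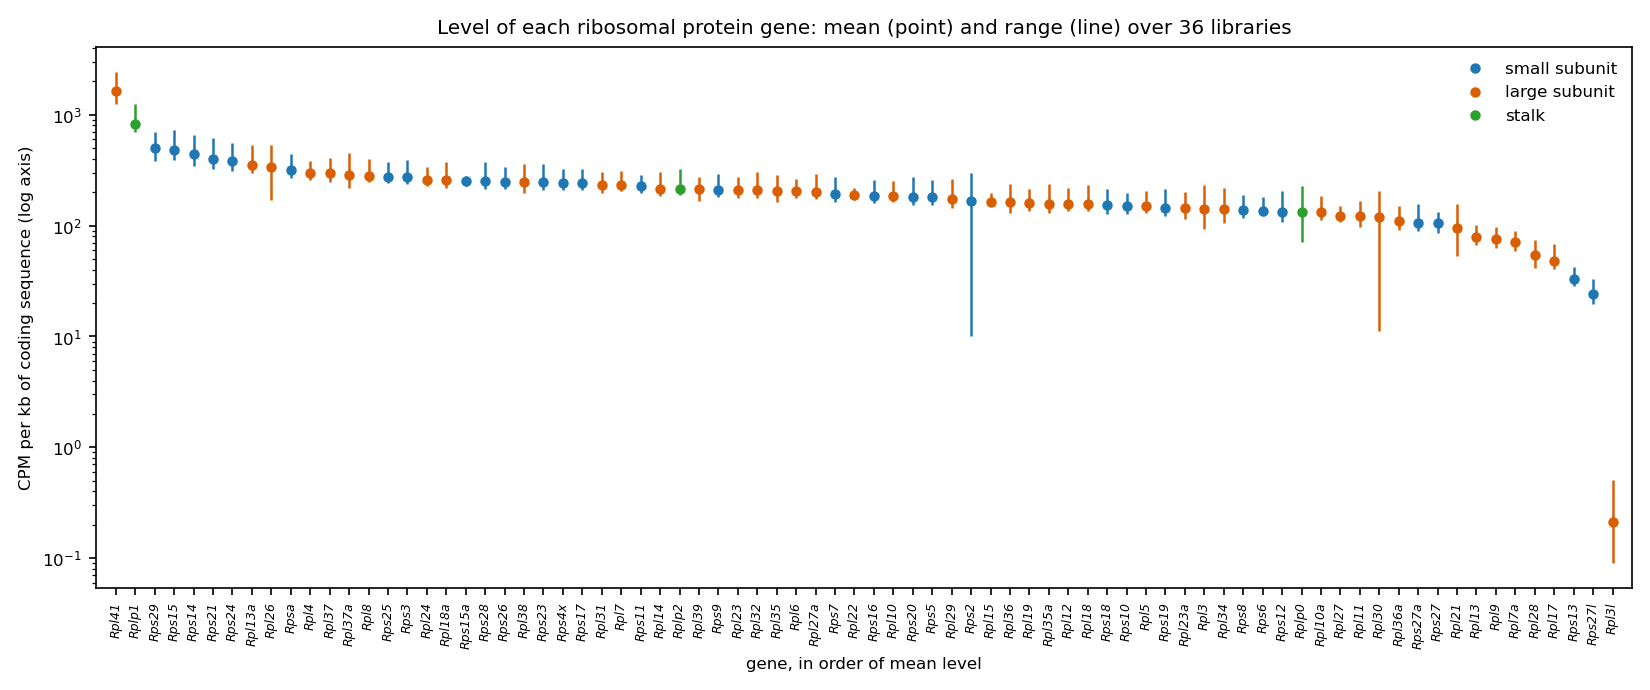
Mean level (points) and lowest to highest library (lines) in CPM per kb of coding sequence, on a log axis, for 78 genes ordered by mean. Rpl41 and Rplp1 lie above the others at 1650 and 819, Rps27l and Rpl3l below at 24.2 and 0.214, and Rps2 and Rpl30 have the widest ranges among the abundant genes.

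Between libraries of a group, the SD of log2 CPM had a median of 0.140 over the 81 genes and 0.249 over all 25382 genes tested. The lower quartile over all genes tested was 0.126, and the genes were not matched for level. The 3 smallest SDs were those of Rpl15 (0.0789), Rps15a (0.0799) and Rpl22 (0.0841). Rpl22, the tagged protein of the cross, ranged from 65.8 to 84.5 CPM over all libraries. The largest SDs belonged to Rps2 (1.14), Rpl30 (0.745) and Rpl32l (0.559), of which Rpl32l is an annotated pseudogene with a mean of 0.149 CPM.

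In some libraries nearly all of these genes stood high or low together. Their summed level had a median of 7847 CPM and ranged from 6954 CPM in APP/Tau naive replicate 5 to 11190 CPM in APP trained replicate 2. As a share of all counts, they held between 0.709% (APP trained replicate 1) and 1.09% (APP trained replicate 2). In APP trained replicate 2, 80 of the 81 genes lay above their own mean over the libraries and 76 had their highest value of all 36 libraries. The median gene stood there at 1.42 times the median of the other libraries. The next highest sum was 9358 CPM in Control naive replicate 5, with 75 genes above their mean, whereas Control naive replicate 6 had only 3 and APP/Tau naive replicate 5 only 5. The small over large subunit ratio of summed CPM stayed between 0.725 and 0.800 in all libraries, and both subunits and the stalk were highest in APP trained replicate 2.

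Not every gene followed. In APP trained replicate 2, Rps15a stood at 1.11 times and Rpl22 at 1.16 times the median of the other libraries, and Rpl3 at 0.965 times. The near-identical copy of Rpl3, Rpl3-ps1, stood there at 223 CPM, against 106 to 200 CPM in the other libraries. Rpl3 and this copy summed to 401 CPM there, their highest sum of all 36 libraries, so only Rpl3 counted alone did not follow. Genes of other lists were high in the same library: the mean deviation of nuclear oxidative phosphorylation genes was 0.432 (log2; -0.205 to 0.252 in the other 35), of mitochondrial ribosomal protein genes 0.303 (-0.124 to 0.195) and of proteasome genes 0.236 (-0.175 to 0.216). Choroid plexus markers also had their highest score there, at 2.54 against -2.63 to 2.46 in the others, and Ttr, the leading choroid plexus transcript, stood at 4348 CPM (23.7 to 3324 CPM elsewhere). The part of any of these in the level of the ribosomal protein genes was not tested. The map of all genes and libraries shows the column of APP trained replicate 2 and the few genes that vary on their own.

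**Figure D2:**
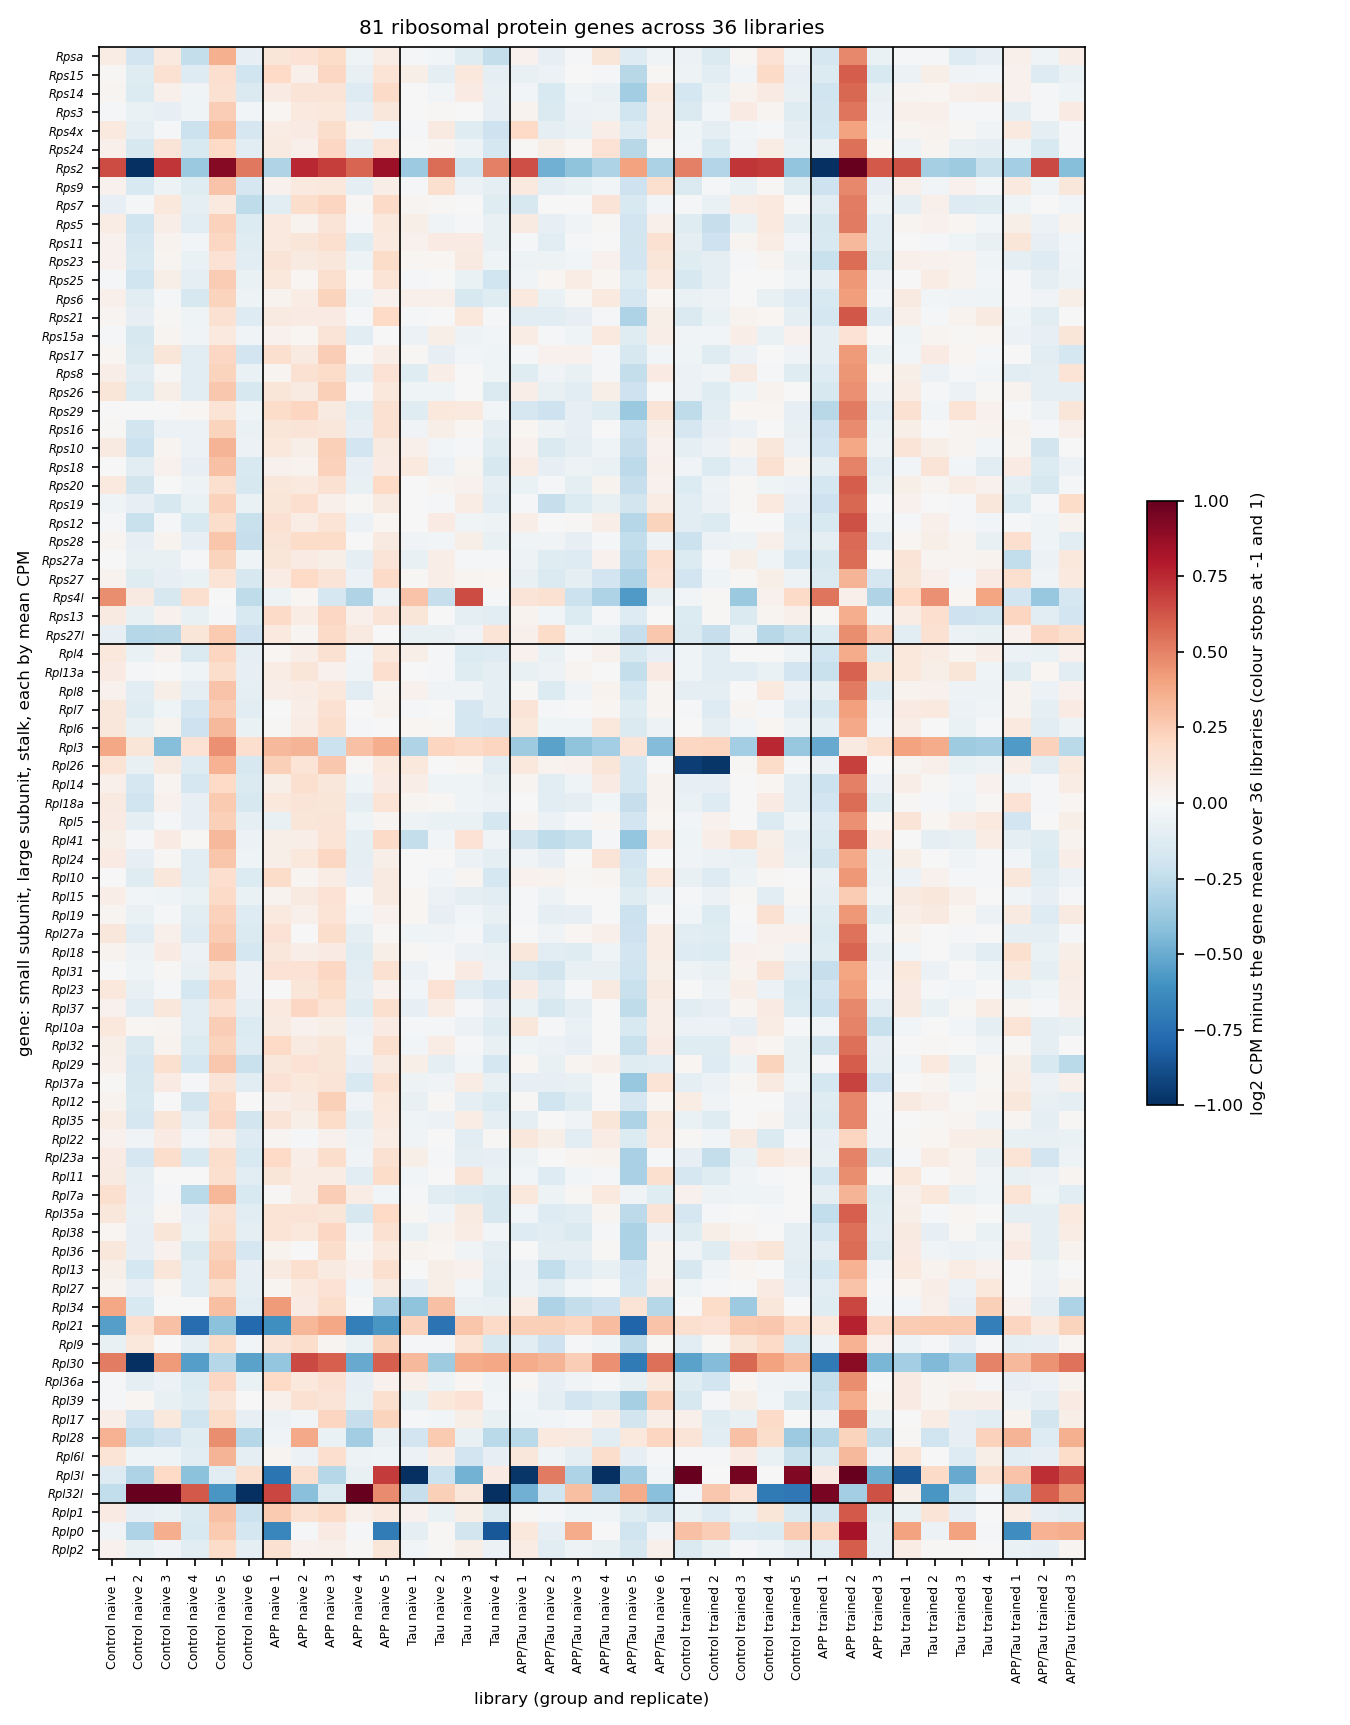
Deviation of log2 CPM from each gene's mean over 36 libraries, for 81 genes (small subunit, large subunit, stalk) in columns grouped by genotype and training; red is above and blue below the mean. APP trained replicate 2 is red for 80 of the 81 genes, and Rps2, Rpl30, Rpl21, Rpl3 and Rplp0 vary between libraries of several groups on their own.

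By group, the summed level was 7958 ± 833 CPM in Control naive (SD, n = 6), 8392 ± 414 in APP naive (n = 5), 7756 ± 239 in Tau naive (n = 4) and 7681 ± 422 in APP/Tau naive (n = 6). After training it was 7762 ± 379 in Control (n = 5), 8615 ± 2252 in APP (n = 3), 7984 ± 215 in Tau (n = 4; 8044 ± 218 without the library labelled replicate 4, n = 3) and 7826 ± 136 in APP/Tau (n = 3). The ranges of the groups overlapped: the Control naive libraries spanned 7221 to 9358 CPM, which holds every APP naive and every Tau naive library. In APP trained, 7015, 11190 and 7640 CPM lie on both sides of the Control trained range of 7427 to 8340 CPM.

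**Figure D3:**
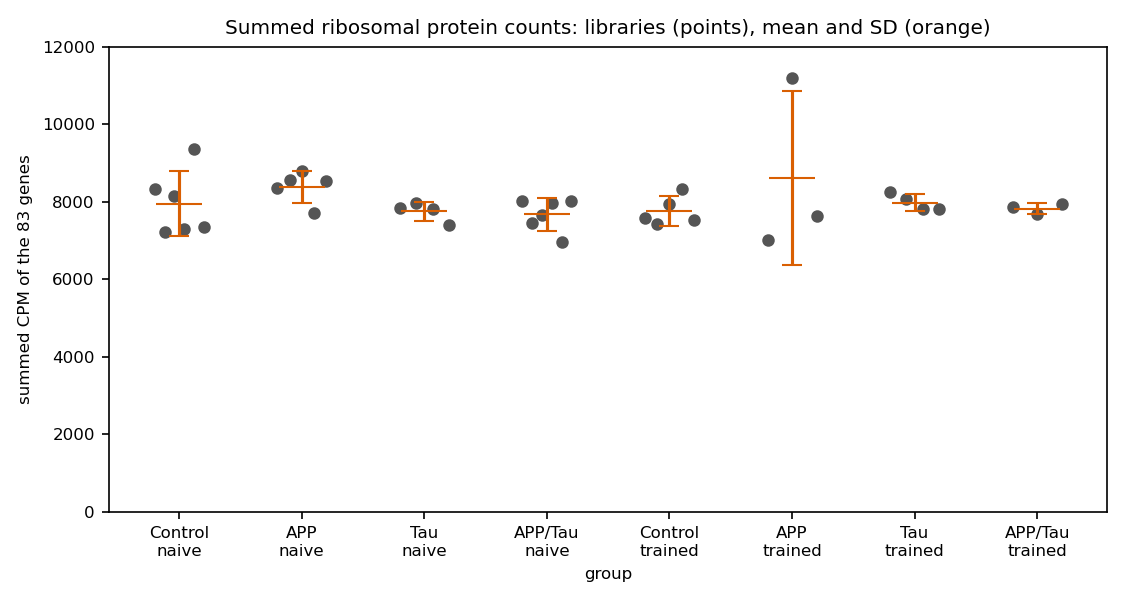
Summed CPM of the 83 genes in each library (points) by group, with the group mean and SD (orange), on an axis from 0. All libraries but APP trained replicate 2 (11190 CPM) lie between 6954 and 9358 CPM, and the groups overlap.

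The comparisons of the single and double transgenics with controls ask how amyloid-β and tau, alone and together, alter the hippocampal transcriptome. No ribosomal protein gene passed the test in any of the 18 comparisons made (edgeR quasi-likelihood, Benjamini-Hochberg adjusted p at or under 0.05 over 25382 genes), and DESeq2 and limma-voom also called 0. In naive mice, APP against Control had 0 of 81 genes called, with 0.0355% of all genes called. Of the 81 genes 77 had a value above 0, with a median log2 change of 0.0804, whereas the median over all genes was -0.00772. The smallest p was that of Rps13 of the small subunit. It ranged from 15.4 to 17.2 CPM in the 5 APP naive libraries (16.9, 15.6, 17.2, 15.4 and 16.2) and from 13.3 to 15.8 CPM in the 6 Control naive libraries, with a median of 14.4. The groups overlapped, and the log2 change of 0.16 ± 0.08 (SE) had an adjusted p of 1. Summed with its copies, which hold over 50% of the counts, Rps13 was at 0.105. At an unadjusted p under 0.05, 1 of the 81 genes (1.23%) and 3.68% of all genes were found.

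Tau against Control, naive, had 0 of 81 genes called (0.0276% of all genes), with 22 genes above 0 and a median of -0.0281. None of the 81 and 9.31% of all genes had an unadjusted p under 0.05, and the smallest p was that of the pseudogene Rpl32l at -0.56 (edgeR adjusted p = 0.684). APP/Tau against Control, naive, had 0 called (0.0670% of all genes), with 17 above 0 and a median of -0.0513, and 2 genes (Rpl41 and Rpl3) had an unadjusted p under 0.05, against 7.48% of all genes. Its smallest p was that of Rpl41, with 118 to 154 CPM (median 126) in Control naive and 94.0 to 131 CPM (median 107) in APP/Tau naive, and a log2 change of -0.22 ± 0.09 (edgeR adjusted p = 0.618). All 3 comparisons share the Control naive libraries, and Control naive replicate 5 was the highest of them. Without it, the medians were 0.125 for APP, 0.0183 for Tau and 0.000564 for APP/Tau, so that the Tau and APP/Tau values changed sign.

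In trained mice, APP against Control had the highest median of all the comparisons, 0.159, with 76 of 81 genes above 0, and 0 called (0.0276% of all genes). At an unadjusted p under 0.05 there were 9 of the 81 genes (11.1%) and 5.84% of all genes. The 9 were Rpl13a, Rpl26, Rplp2, Rps12, Rps20, Rps24, Rps27a, Rps27l and Rps28. The smallest p was that of Rps27l, with 6.88, 10.5 and 8.96 CPM in APP trained and 6.84, 6.45, 7.33, 6.24 and 6.48 CPM in Control trained. APP trained replicate 1 lay within the Control range and the other two above it, and the log2 change was 0.39 ± 0.12 (edgeR adjusted p = 0.694). Choroid plexus markers stood apart in the same comparison: all 16 were above 0, with 0 called and a median of 2.02, and their summed level was 90.2, 2970 and 5108 CPM from lowest to highest in APP trained and 94.3 to 1125 CPM in Control trained. In naive mice their sum was 572 to 3686 CPM in APP and 69.9 to 2819 CPM in Control, and no marker was at 0 in all libraries of a group. With the choroid plexus score as a covariate, the median of the ribosomal protein genes was 0.108 after training and 0.0256 in naive APP mice, with 61 genes above 0, where it was 0.0804 without the covariate. It was -0.0837 for Tau naive, with 5 above 0, and -0.0119 for APP/Tau trained, with 30. Rps27l was at 0.255 in APP trained with the covariate.

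This median turned on 1 library. The stalk genes show it: Rplp1 stood at 246, 425 and 256 CPM in the 3 APP trained libraries and Rplp2 at 67.5, 111 and 68.3 CPM, with replicate 2 far above the other two. Without APP trained replicate 2 the median was -0.0670, with 7 of 81 genes above 0, and Rps27l was at 0.26. With limma-voom and quality weights, which weigh libraries unequally, it was 0.0267. Without APP trained replicate 1, which had the lowest sum of the 3, the median was 0.268 and Rpl13a, a large subunit protein also known as part of an interferon-responsive translation inhibitor complex, was called with a log2 change of 0.48 (edgeR adjusted p = 0.00817). Rpl13a stood at 184, 323 and 233 CPM in APP trained and at 188 to 208 CPM in the 5 Control trained libraries. Its replicates of 1 group thus span the whole Control range and more.

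Tau against Control, trained, had 0 of 81 genes called where 0.303% of all genes were, with 65 genes above 0 and a median of 0.0487. An unadjusted p under 0.05 was found for 1 of the 81 and for 15.2% of all genes. Without the library labelled Tau trained replicate 4 the median was 0.0609 and 70 genes were above 0. The smallest p was that of Rpl3l, at 0.237 to 0.568 CPM in Control trained and 0.132 to 0.272 CPM in Tau trained, groups that overlap. Its log2 change was -0.95 ± 0.35 (edgeR adjusted p = 0.182), and -1.06 without the library labelled replicate 4, on 814 counts over all 36 libraries. APP/Tau against Control, trained, had 0 called (0.0552% of all genes), 53 genes above 0 and a median of 0.0203, with 1 gene and 10.2% of all genes under an unadjusted p of 0.05. Rps27l again had the smallest p, with 7.81, 8.74 and 8.49 CPM in APP/Tau trained against 6.24 to 7.33 CPM in Control trained. These ranges do not overlap, and the log2 change was 0.33 ± 0.12 (edgeR adjusted p = 0.332), or 0.196 with the choroid plexus covariate. The Control trained libraries are shared by these comparisons.

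Maze training was compared within each genotype, and 0 of 81 ribosomal protein genes and 0% of all genes were called in each. The median log2 change was -0.0411 in Control, with 12 genes above 0, 0.0381 in APP, with 59, 0.0374 in Tau, with 67, and 0.0264 in APP/Tau, with 53. Each of these is smaller than the SD between libraries of the mean log2 level of the genes, 0.125. That SD describes the spread of single libraries and is not the error of a difference between groups. Without APP trained replicate 2 the APP value was -0.181 with 4 genes above 0, without APP trained replicate 1 it was 0.152 with 77, and without Control naive replicate 5 the Control value was 0.00660 with 48. Without the library labelled Tau trained replicate 4 the Tau value was 0.0430, and with the choroid plexus covariate it was 0.109 with 75 genes above 0. Leaving out 1 library at a time, the APP/Tau value ranged from -0.00706 (without APP/Tau naive replicate 5) to 0.057. The unadjusted p was under 0.05 for 1 gene in each genotype: Rpl3l in Control and in APP/Tau, Rplp0 in APP and Rpl15 in Tau. The shares of all genes were 5.85% in Control, 5.24% in APP, 14.6% in Tau and 3.07% in APP/Tau.

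Rpl15, which had the longest tract at its start, stood at 101, 96.4, 94.1 and 92.9 CPM in Tau naive and at 107, 109, 104 and 100 CPM in Tau trained. The lowest trained library lay just under the highest naive one, and the log2 change was 0.13 ± 0.06 (edgeR adjusted p = 0.318), or 0.149 without the library labelled Tau trained replicate 4. Rplp0, the protein that anchors the stalk dimers, stood at 77.4, 121, 129, 120 and 75 CPM in APP naive and at 141, 215 and 114 CPM in APP trained, a log2 change of 0.59 ± 0.22 (edgeR adjusted p = 0.925). It was 0.00597 when Rplp0 was summed with its copies and 0.29 without APP trained replicate 2. In the APP naive libraries with 77.4 and 75 CPM, its copy Gm8730 stood at 77.6 and 75.2 CPM.

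Averaged over groups, carriers of APP had a median of 0.0464 against non-carriers, with 77 of 81 genes above 0 and 0 called (0.0985% of all genes). An unadjusted p under 0.05 was found for 2 of the 81 and 9.95% of all genes. Rps27l had the smallest p, with a log2 change of 0.18 ± 0.06 (edgeR adjusted p = 0.278), 0.15 without APP trained replicate 2, 0.177 without the library labelled Tau trained replicate 4 and 0.10 with the choroid plexus covariate. That covariate gave a median of 0.018 for APP carriers. Carriers of Tau had a median of -0.0580, with 6 genes above 0 and 0 called, where 0.835% of all genes were called. An unadjusted p under 0.05 was found for 5 of the 81 and 13.2% of all genes. Rpl41 had the smallest p, with -0.16 ± 0.05 (edgeR adjusted p = 0.136). In this comparison 8 of 9 oligodendrocyte markers and 4 of 10 markers of activated microglia were called higher. The oligodendrocyte markers summed to 3325 to 5900 CPM in 17 libraries labelled as Tau carriers and 2901 to 5251 CPM in the 19 others. The activated microglia markers summed to 103 to 278 CPM (median 122) and 99.1 to 136 CPM (median 116) there, with no marker at 0 throughout. Their part in the values of ribosomal protein genes was not tested. Trained against naive, over all genotypes, gave a median of 0.0142 with 69 genes above 0 and 0 called (0% of all genes), and 3 genes (Rpl3l, Rplp0 and Rpl21) and 7.95% of all genes under an unadjusted p of 0.05. Rpl3l was at 0.53 (edgeR adjusted p = 0.527).

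These averaged medians also rested on APP trained replicate 2. Without it they were -0.00810 for APP carriers, with 26 genes above 0, -0.000318 for Tau carriers, with 40, and -0.0382 for training, with 7. Rpl41 was at -0.10 for Tau carriers without this library and at -0.169 without the library labelled Tau trained replicate 4. Without the library labelled Tau trained replicate 4, the Tau carrier median was -0.0544 with 6 genes above 0, that of APP carriers 0.0424 and that of training 0.0171, with Rpl3l at 0.505 for training. With APP trained replicate 1 left out, APP carriers had a median of 0.0735 and training one of 0.0446, and without Control naive replicate 5 the training median was 0.0274.

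Non-additivity, the difference of APP/Tau from the sum of the single transgenic effects, had a median of -0.0978 in naive mice, with 12 genes above 0 and 0 called (0% of all genes). Rps27 had the smallest p there, at -0.29 (edgeR adjusted p = 0.632). It was the only 1 of the 81 (1.23%) under 0.05 unadjusted, against 7.13% of all genes. In trained mice the median was -0.171, with 4 genes above 0, and 0 called (0.0118% of all genes), with 9 of the 81 (11.1%) and 9.39% of all genes under an unadjusted p of 0.05. Rpl13a had the smallest p in trained mice, at -0.43 ± 0.14 (edgeR adjusted p = 0.440). It was at -0.193 without APP trained replicate 2, -0.608 without replicate 1 and -0.469 without the library labelled Tau trained replicate 4. In the trained comparison the APP trained libraries enter with a negative sign, and without APP trained replicate 2 the median was 0.0333 with 58 genes above 0. It was -0.282 without APP trained replicate 1 and -0.193 without the library labelled Tau trained replicate 4, and the naive median was -0.153 without Control naive replicate 5, -0.0605 without APP/Tau naive replicate 5 and -0.00418, with 38 genes above 0, with the choroid plexus covariate.

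The change with training, compared with that in Control, had a median of 0.0740 for APP, 0.0762 for Tau and 0.0602 for APP/Tau, with 69, 69 and 66 genes above 0. All 3 subtract the same Control libraries, and 0 of the 81 genes and 0% of all genes were called in each. The unadjusted p was under 0.05 for 0, 1 (Rpl15 in Tau) and 0 of the 81 genes. For all genes the shares were 2.67% for APP, 9.04% for Tau and 4.14% for APP/Tau. Without APP trained replicate 2 the APP value was -0.142, and without APP trained replicate 1 it was 0.194. Without Control naive replicate 5 the 3 medians were 0.0265, 0.0393 and 0.0112, and without the library labelled Tau trained replicate 4 the Tau median was 0.0874 and Rpl15 was at 0.186. With the choroid plexus covariate the Tau median was 0.144. The plot of all comparisons shows the medians with and without that library.

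**Figure D4:**
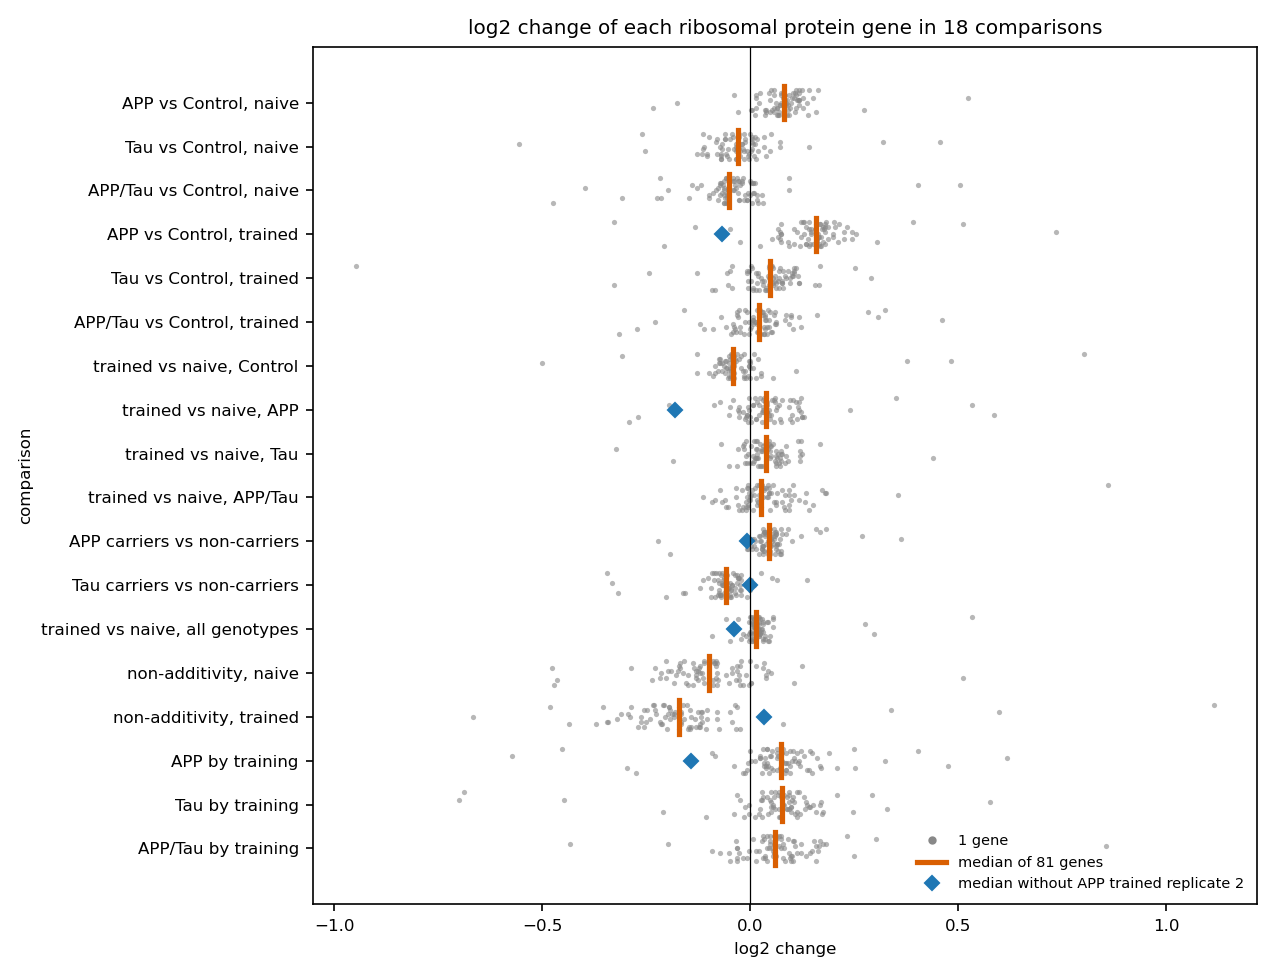
log2 change of each of the 81 genes (grey points) in 18 comparisons, with the median (orange bar) and, where APP trained replicate 2 enters, the median without it (blue diamond). The medians lie between -0.171 and 0.159, and the diamonds lie on the other side of 0 in 6: APP against Control after training (-0.0670), training in APP (-0.181), APP carriers (-0.00810), training over all genotypes (-0.0382), non-additivity in trained mice (0.0333) and the APP difference in training response (-0.142).

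Rpl22 did not pass the test in any comparison. Its mean level was 72.8 ± 3.98 CPM in Control naive (SD, n = 6), 73.5 ± 2.49 in APP naive (n = 5), 71.1 ± 2.79 in Tau naive (n = 4) and 73.7 ± 5.59 in APP/Tau naive (n = 6). After training it was 71.9 ± 4.21 in Control (n = 5), 74.7 ± 8.60 in APP (n = 3), 74.7 ± 1.46 in Tau (n = 4) and 69.2 ± 0.139 in APP/Tau (n = 3). The APP/Tau trained libraries (69.0 to 69.3 CPM) lay below the Tau trained ones (73.4 to 76.1 CPM), a pair that was not tested, and both lay within the Control naive range of 66.5 to 76.8 CPM. Without the library labelled replicate 4 the Tau trained mean was 74.4 ± 1.53 (n = 3). Over the 18 comparisons its log2 change ran from -0.165 (non-additivity in trained mice, edgeR adjusted p = 0.576) to 0.0897. For carriers of APP the log2 change was 0.0014, with a 95% interval from -0.0600 to 0.0629, for carriers of Tau -0.0216 (-0.0831 to 0.0398) and for training -0.0037 (-0.0651 to 0.0577). Counts per gene do not separate tagged from untagged Rpl22, and its paralog Rpl22l1 ranged from 32 to 59.3 CPM.

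Some ribosomal protein genes stood at separate levels, and for Rps2, Rpl30 and Rpl3 these were spread over most groups, with a near-identical copy high where the gene was low. These genes were singled out after their values were seen. Transcripts of annotated pseudogenes that matched a gene at 90% identity or more over at least 200 bases gave 856 copies of 72 of the 83 genes in the count table. They held 15.6% to 19.4% of the counts of genes and copies together, over 10% for 37 genes and over 50% for 4 (Rpl17, Rpl28, Rps13 and Rpl27a). Rps2 of the small subunit stood at 8.78 and 9.11 CPM in Control naive replicate 2 and APP trained replicate 1. It stood at 89.9 to 109 CPM in 15 libraries and at 165 to 263 CPM in 19. Rps2-ps10, on chromosome 18 with 99.4% identity over 879 bases, stood at 247 to 266 CPM in the same 2 libraries, at 116 to 152 CPM in the 15 and at 4.42 to 8.70 CPM in the 19. The sum of both ranged from 170 to 275 CPM, a 1.61-fold range, where Rps2 alone had a 29.9-fold range.

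Rpl30 of the large subunit stood at 3.88 CPM in Control naive replicate 2, at 23.1 to 31 CPM in 14 libraries and at 44.8 to 70.7 CPM in 21, and its copy Gm12191 stood there at 34.4 CPM, at 18.6 to 27.4 CPM and at 9.18 to 15 CPM. Rpl3, a protein near the peptidyl transferase centre, stood at 113 to 144 CPM in 15 libraries and 178 to 281 CPM in 21. Its copy Rpl3-ps1 on the X chromosome stood at 159 to 200 CPM in the 15 and at 106 to 157 CPM in 20 of the 21, with 223 CPM in APP trained replicate 2. Rplp0 had a 3.18-fold range alone and 1.67-fold with its copy Gm8730. Apart from the lowest level of Rps2 and of Rpl30, each of these levels was seen in libraries of at least 7 of the 8 groups, but not evenly. In APP/Tau naive, Rpl3 stood at 131, 115, 126, 132, 183 and 123 CPM and Rpl3-ps1 at 180, 166, 184, 184, 123 and 164 CPM. In Control naive, Rpl3 stood at 218, 182, 124, 184, 229 and 188 CPM and Rpl3-ps1 at 149, 120, 171, 123, 157 and 122 CPM. Rpl3 was named above for APP/Tau against Control, naive. The plot of gene against copy shows the levels. Levels were also uneven between groups for 2 other genes. Rpl26 stood at 75.5 and 73.9 CPM in Control trained replicates 1 and 2 and at 129 to 234 CPM in the other 34 libraries, and it was among the 9 genes named above for APP against Control after training. Its copy Gm15772, with 99.5% identity, ranged from 3.87 to 73.9 CPM and was highest in Control trained replicate 1. The sum of Rpl26 and this copy had a 1.81-fold range, where Rpl26 alone had a 3.16-fold range. Rpl21 stood at 25.4 to 33.3 CPM in 10 libraries of 5 groups, of which 9 were naive, and at 47.3 to 75.1 CPM in the other 26. It was named above for trained against naive over all genotypes. The sum of Rpl21 and its copy Rpl21-ps15 had a 2.93-fold range, where Rpl21 alone had a 2.96-fold range.

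**Figure D5:**
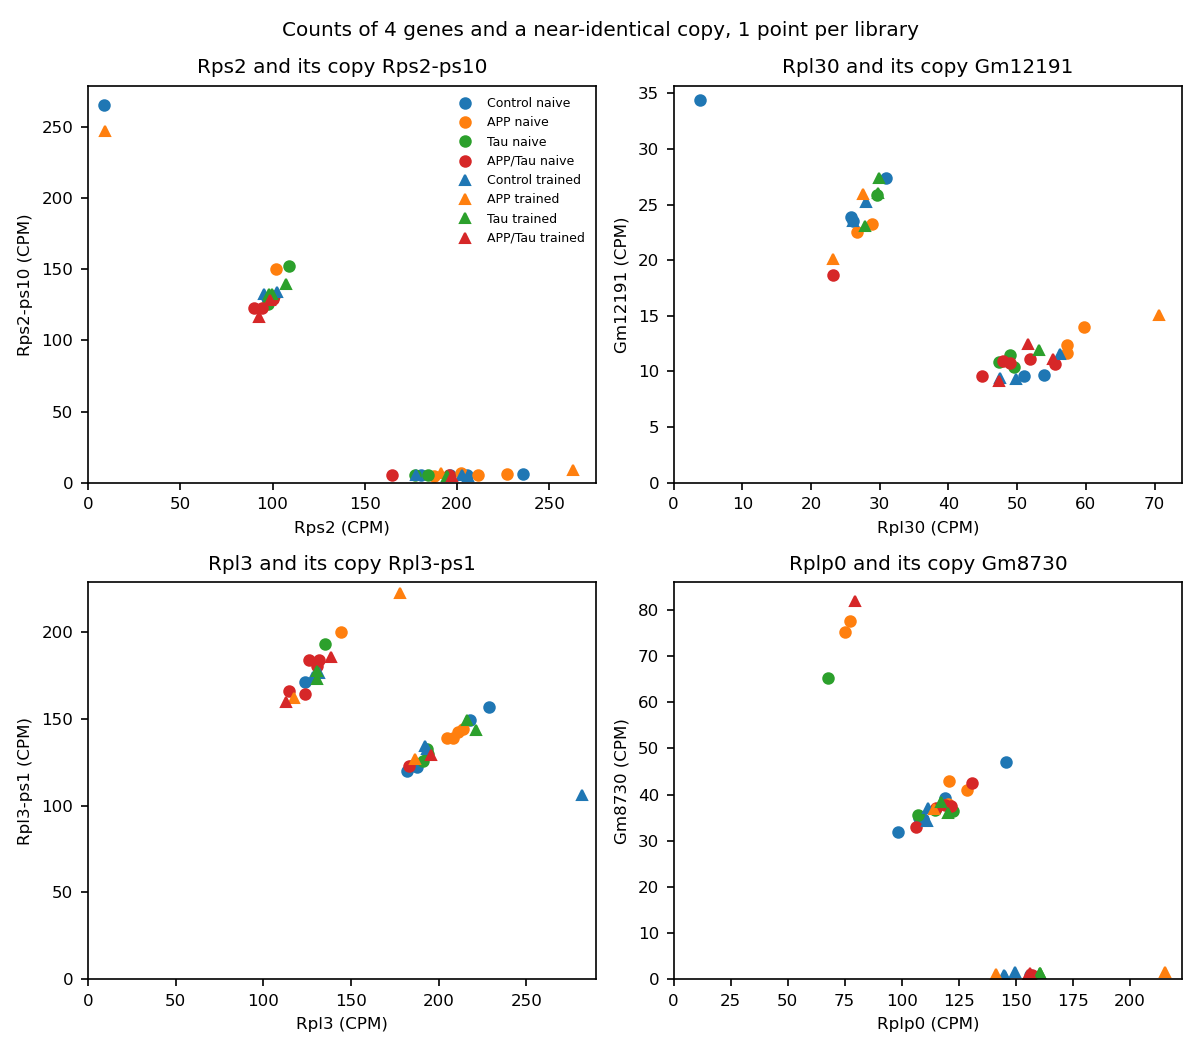
CPM of Rps2, Rpl30, Rpl3 and Rplp0 (horizontal) against CPM of a near-identical copy (vertical), 1 point per library, circles naive and triangles trained, colours by genotype. Rps2 falls into 3 clusters with 2, 15 and 19 libraries, and the copy is at 116 CPM or more wherever Rps2 is at 109 CPM or less.

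How little tells the gene from its copy is seen in the coding sequence, shown here for 70 bases of 2 pairs, with the bases that differ in capitals. Over the 1209 coding bases Rpl3 and Rpl3-ps1 differ at 2, and over 951 Rplp0 and Gm8730 differ at 12 (GENCODE M21 transcripts).
Rpl3 bases 57 to 126: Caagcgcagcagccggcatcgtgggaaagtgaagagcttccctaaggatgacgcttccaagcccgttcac
Rpl3-ps1: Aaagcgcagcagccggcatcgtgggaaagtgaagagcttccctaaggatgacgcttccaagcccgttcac
Rplp0 bases 388 to 457: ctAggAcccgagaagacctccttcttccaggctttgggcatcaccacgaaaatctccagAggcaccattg
Gm8730: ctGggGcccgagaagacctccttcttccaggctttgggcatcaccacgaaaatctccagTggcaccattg

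A coding read that covers none of the differing bases matches both members of a pair. The counts of Rpl3, Rpl26, Rpl30, Rplp0 and Rps2 are uncertain where the counting could split such reads. What sets the separate levels was not tested. With each gene summed with its copies, the SD between libraries fell from 1.14 to 0.180 for Rps2 and from 0.745 to 0.248 for Rpl30. For Rpl21 it went only from 0.416 to 0.355. The SD was smaller with copies for 40 of the 81 genes. The largest SD was then 0.559, that of the pseudogene Rpl32l, for which copies were not sought. The median SD was 0.135, against 0.140 alone.

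Among related lists, no other ribosomal, initiation factor or mTOR gene passed the test in the averaged comparisons. Outside these lists, the pseudogene Lamr1-ps1 was called higher in Tau carriers (log2 change 9.78, edgeR adjusted p = 7.04e-08). It stood at 1.62 to 2.98 CPM in Tau naive, 2.15 to 3.25 CPM in APP/Tau naive and 0 to 3.49 CPM in Tau trained. All Control naive and APP naive libraries had 0 CPM. What sets its level was not tested. Of 22 other mRNAs known to begin with a pyrimidine tract (elongation factors and the like), 0 were called in APP against Control after training, 19 were above 0 and the median was 0.0824. Of 78 mitochondrial ribosomal protein genes 0 were called there, 66 were above 0 and the median was 0.0772. The mean deviation (log2) of the tract mRNAs was -0.0992, 0.271 and -0.0393 in the 3 APP trained libraries and -0.0615 to -0.0028 in Control trained, and that of the mitochondrial genes -0.0181, 0.303 and -0.0759 against -0.0322 to 0.0107, so in both lists replicate 2 alone lay above the Control libraries. Of 51 ribosome biogenesis genes 0 were called, 32 were above 0 and the median was 0.0277. In Tau carriers, 2 of the 22 tract mRNAs and 2 of the 78 mitochondrial genes were above 0, where 47% of all genes were. APP trained replicate 2 is a non-carrier library and had the highest mean deviation of all libraries in both lists. The other 35 reached 0.166 for the tract mRNAs and 0.195 for the mitochondrial genes. These counts were not taken without it. The smallest p of the lists belonged in APP carriers to Eif4b, an initiation factor whose mRNA carries the tract (-0.0716, edgeR adjusted p = 0.325), and to Ubtf, a factor of ribosomal RNA transcription (0.0665, edgeR adjusted p = 0.315). In Tau carriers Ubtf was at -0.0673 (edgeR adjusted p = 0.157). Eif4ebp1, the translation repressor that mTOR phosphorylates, was at 0.292 in APP carriers (edgeR adjusted p = 0.416). Among 14 ribosome rescue genes, Ltn1, the E3 ligase that tags stalled nascent chains on the large subunit, was called lower in each of the 4 comparisons of APP or APP/Tau with Control and in APP carriers, where its log2 change was -1.02 ± 0.05 (edgeR adjusted p = 1.16e-16). The other 13 did not pass there. Mean Ltn1 levels were 71.9 CPM in Control naive and 71.2 in Tau naive, against 35.2 in APP naive and 35.6 in APP/Tau naive. After training they were 73.9, 72.9, 38.2 and 34.3 CPM in the same order of genotypes. What sets the lower level was not tested.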

How the data were processed

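The data were gene counts of 36 poly(A) RNA libraries from the input fraction of hippocampal lysate. The deposited table holds raw counts per gene made by the authors, with whole numbers and no normalisation. Trimmomatic 0.39 and the build mm39 are named, per the submitters' processing notes. Not given in the sources used here are the aligner, the counting tool, its handling of reads that match several places, and the annotation.

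The ribosomal protein genes, the other gene lists and the tests were chosen with earlier results of these data known. Genes were kept by filterByExpr of edgeR (count minimum 10, total minimum 15), which left 25382 of 41519 genes with a count, and library sizes were scaled by TMM. All 8 groups were fitted in a quasi-likelihood model (edgeR 4.0.16, R 4.3.3), 18 contrasts were tested and p-values were adjusted over all tested genes with a threshold of 0.05. The method was tested on simulated counts. Alternatives were RLE and upper-quartile scaling, no filter, a block for the replicate number, a covariate for the library number or for a choroid plexus score, only the groups compared, DESeq2 1.42.0, limma-voom 3.58.1 and leaving out each library. Summing each gene with its copies was added after seeing the data. No 2 libraries were identical: over 68 same-group pairs the chi-square per degree of freedom was 14.4 to 157.

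CPM per kb uses GENCODE M21 coding lengths (GRCm38), while the counts refer to mm39. Copies were found with BLAST+ 2.17.0+ at 90% identity or more over at least 200 bases. They were sought only for genes with a protein-coding transcript, so not for the pseudogenes Rpl6l, Rpl32l and Rps4l. Named were Rpl22, the stalk genes, the paralogs Rpl3l, Rpl10l, Rpl39l and Rps27l, the gene with the smallest p in each contrast, the 3 highest and 3 lowest per coding length, the 3 largest and smallest SDs, genes below the filter, and called or smallest-p genes of the other lists. Other names, and the sequences shown, were chosen after values were seen. Some items are not reported here.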

Additional observations from a re-analysis of the deposited data

Results flagged for a closer look

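In groups of 4 to 6 libraries, 8 cases had 1 library far from the others of its group. These are among 17 items examined in 6 groups each: the named genes that passed the filter and the summed level of all genes. Rps2 and Rpl30 were among those named for the largest SDs. Chance alone gives such a gap in about 1 in 20 groups. In Control naive replicate 5, Rpl41 stood at 154 CPM, where the other libraries of the group had 118 to 130 CPM, and Rps29 at 91.0 CPM, with 80.7 to 83.8 CPM in the others. Rps27l stood at 8.34 CPM in Tau naive replicate 4 and at 7.19 to 7.38 CPM in the other Tau naive libraries. Rplp1 stood at 303 CPM in Control trained replicate 4 and at 252 to 266 CPM in the others.

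The remaining 4 cases were genes that stand at separate levels. Rpl30 was at 29.6 CPM in Tau naive replicate 2 (47.4 to 49.6 CPM in the others), at 23.1 CPM in APP/Tau naive replicate 5 (44.8 to 55.5 CPM) and at 53.2 CPM in the library labelled Tau trained replicate 4 (27.9 to 29.9 CPM). Rps2 was at 195 CPM in Tau trained replicate 1 and at 97.9 to 107 CPM in the other libraries of that group.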

How the results depend on the processing

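Under the 10 settings other than leaving out a library, 0 ribosomal protein genes were called in each of the 18 comparisons. With limma-voom and quality weights the median of the genes was 0.0267 for APP against Control after training, -0.101 for training in APP and -0.0962 for the APP difference in training response. Rpl22, near 0 throughout, changed sign with limma-voom in APP against Control after training (-0.0187), training in Control (0.00712), training in APP (-0.0375), APP carriers (-0.0153) and the APP difference in training response (-0.0446). It did so with upper-quartile scaling in training in APP (-0.00867) and APP carriers (-0.00827), and with the choroid plexus covariate in APP naive (-0.0137), APP carriers (-0.0128) and training over all genotypes (0.00566). The cause was not tested.

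With the replicate block, Rpl22 in APP carriers was at -0.00141 and the median for APP against Control after training was 0.143, and the block changed no call. The numbers do not pair the libraries: over 106 same-numbered pairs the correlation of deviations had a median of -0.0137 (-0.335 to 0.233), and 7 libraries matched best with their own number.

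Leaving out 1 library at a time, the median ranged from -0.067 to 0.268 for APP against Control after training (0 to 1 genes called), from -0.181 to 0.152 for training in APP, from -0.142 to 0.194 for the APP difference in training response and from -0.282 to 0.0333 for non-additivity in trained mice. Rpl22 ranged from -0.011 to 0.0343 in APP naive, -0.00826 to 0.0458 in APP/Tau naive, -0.0445 to 0.111 in APP trained, -0.0457 to 0.0129 in training in Control, -0.076 to 0.0791 in training in APP, -0.0231 to 0.0157 in APP carriers, -0.0361 to 0.00273 in Tau carriers, -0.0281 to 0.0107 in training over all genotypes and -0.058 to 0.0971 in the APP difference in training response. Depth limits Rpl3l and Rpl32l, with 814 and 478 counts in all, and Rpl39l, with 89.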

Other observations

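In the libraries of each level of Rps2, 2 genes outside the ribosome and a pseudogene named for each also stood at separate levels. They were singled out after their values were seen. Atp6v0c, a subunit of the vacuolar proton pump, was at 104 and 106 CPM in the pair of libraries with the lowest Rps2 (Control naive replicate 2 and APP trained replicate 1), at 174 to 218 CPM in the 15 of the middle level and at 256 to 356 CPM in the 19 of the highest. Atp6v0c-ps2 was at 186 to 196 CPM, 83.2 to 109 CPM and 4.49 to 7.66 CPM in the same libraries. Rnps1, a splicing factor of the exon junction complex, was at 37.3 to 41.4 CPM, 58.7 to 71.6 CPM and 85.4 to 107 CPM, and Rnps1-ps at 47.1 to 52.1 CPM, 21.9 to 26.8 CPM and 0.195 to 0.749 CPM.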
